A study of Rattus norvegicus with 6 samples.

Results

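In nucleus pulposus cells given lactate, 43 named genes that had at least 100 reads in every control library had almost no reads left. These cells come from the gelatinous core of the intervertebral disc. The members were chosen from the measured counts themselves: each had 100 or more reads in each of the 3 control libraries and 15 or fewer in each of the 3 lactate libraries. Of 17273 rows in the deposited gene table, 69 passed both thresholds. Of these, 7 were left out by name: 6 belong to the 16 name families that were not considered, such as Slc and Zfp, and 1, Smad9, was left out as a single gene. A further 19 rows without a standard gene symbol were counted apart. The remaining 43 are 0.474% of the 9076 rows with an admitted name that met the control threshold. Their fall in the lactate libraries is therefore how they were chosen and is described without a test.

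The study sequenced RNA from 6 libraries of wild-type nucleus pulposus cells of male Sprague Dawley rats. In the lactate group, 3 libraries came from cells exposed to 10 mM lactate for 8 h, and in the control group, 3 libraries came from untreated cells. All cells grew in serum-supplemented DMEM. The labels do not say whether the lactate was the acid or a salt, give no age or passage, and leave unsaid whether each library had its own culture or animal. The p-values below therefore reflect nothing beyond the scatter among these 6 libraries, and that scatter could be technical.

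An mRNA's level in a cell reflects how fast it is transcribed and how fast it is degraded, and a read count shows only the balance. Lactate is the end product of glycolysis, on which cells of the poorly vascularised disc core depend, and it also acts as a signal through receptors and as a donor for a modification of proteins. The 43 genes form no single pathway: they include enzymes that modify transfer RNA, adaptors of cullin ubiquitin ligases, regulators of transcription, ion channel subunits, and single members of signalling, repair and defence systems. In bulk RNA, fewer cells of a type and less RNA per cell cannot be told apart.

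Promoter sequences were available from RefSeq (build GRCr8) for 35 of the 43 genes, as the 250 bases before and 50 bases after the first listed start. Their printed examples are Dcun1d2, which had the deepest fall, Extl2, which had the highest control counts, and the 3 promoters that held a letter motif of the factor ZNF143. The windows lie at chr16:82956367-82956666 on the forward strand for Dcun1d2, chr2:206607214-206607513 on the forward strand for Extl2, chr17:71493189-71493488 on the reverse strand for Asb13, chr5:67406261-67406560 on the forward strand for Invs and chr15:4071427-4071726 on the reverse strand for Nudt13. Each is printed from 5′ to 3′ in the direction of transcription, and capitals mark matches to any of the 9 motifs searched.
Dcun1d2: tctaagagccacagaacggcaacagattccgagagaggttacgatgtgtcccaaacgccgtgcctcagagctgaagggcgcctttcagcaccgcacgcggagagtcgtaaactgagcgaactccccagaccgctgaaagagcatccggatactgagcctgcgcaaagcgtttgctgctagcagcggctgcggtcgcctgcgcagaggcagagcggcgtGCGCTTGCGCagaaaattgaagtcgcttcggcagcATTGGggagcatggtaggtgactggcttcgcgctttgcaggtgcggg
Extl2: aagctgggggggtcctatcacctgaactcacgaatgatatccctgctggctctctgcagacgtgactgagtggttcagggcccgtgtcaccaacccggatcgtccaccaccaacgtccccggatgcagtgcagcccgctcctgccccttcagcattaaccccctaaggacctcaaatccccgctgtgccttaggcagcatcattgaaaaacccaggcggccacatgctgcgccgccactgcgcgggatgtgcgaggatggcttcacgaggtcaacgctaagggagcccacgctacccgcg
Asb13: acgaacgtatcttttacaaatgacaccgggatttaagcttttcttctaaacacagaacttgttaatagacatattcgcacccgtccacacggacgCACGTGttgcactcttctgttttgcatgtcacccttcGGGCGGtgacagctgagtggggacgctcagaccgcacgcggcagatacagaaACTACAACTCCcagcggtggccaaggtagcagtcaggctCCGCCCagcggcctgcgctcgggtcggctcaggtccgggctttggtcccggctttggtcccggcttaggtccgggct
Invs: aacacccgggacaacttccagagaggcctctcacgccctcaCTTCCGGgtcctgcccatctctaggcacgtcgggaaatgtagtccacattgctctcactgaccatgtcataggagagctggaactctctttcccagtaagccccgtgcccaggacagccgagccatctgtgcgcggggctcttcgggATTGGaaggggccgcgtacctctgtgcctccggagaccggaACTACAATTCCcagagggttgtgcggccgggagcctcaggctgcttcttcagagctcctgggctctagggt
Nudt13: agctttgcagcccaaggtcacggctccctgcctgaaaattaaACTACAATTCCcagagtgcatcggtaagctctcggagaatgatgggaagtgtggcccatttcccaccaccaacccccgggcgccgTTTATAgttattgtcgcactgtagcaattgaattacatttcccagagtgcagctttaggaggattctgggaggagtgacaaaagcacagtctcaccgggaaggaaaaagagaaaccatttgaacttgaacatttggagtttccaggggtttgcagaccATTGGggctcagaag

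The motifs were searched on both strands for the letters TATAAA (the motif of TBP), CCAAT (of NF-Y), GGGCGG (of Sp1), CACGTG (of bHLH factors), TGACGTCA (of CREB) and CCGGAAG (of ETS factors), and for the longer motifs of NRF1, ZNF143 and YY1, which are given by name, and overlapping matches were all counted. The ZNF143 letters stood in the promoters of Asb13, Invs and Nudt13, which is 3 of 35 or 8.57%, beside 1.05% of all RefSeq promoters and 2.66% of the promoters of other genes that met the control threshold. Among these others, the lowest of 5 equal groups by control level, where 42 of the 43 members lie, had 2.77%. The NRF1 letters, one copy of which is in the Dcun1d2 window, stood in 7 of 35 member promoters, beside 4.71% of all promoters, 11.5% of those of the other genes that met the control threshold and 9.63% of those in that lowest level group. GGGCGG was in 48.6% of the member promoters, against 66.4% of those other promoters and 60.4% in the lowest level group, and CCAAT in 42.9%, against 38.6% and 38.5%. CCGGAAG was in 14.3% of the member promoters against 20.1% of those other promoters, CACGTG in 8.57% against 10.1% and TGACGTCA in 2.86% against 3.42%. The YY1 letters were in 0% against 3.11%, and TATAAA in 8.57% against 6.07%. None of the 9 motifs was in the Extl2 window. Median GC content was 57.0% in the member promoters, against 61.7% in those of the other genes that met the control threshold and 60.3% in the lowest level group. A CpG ratio (observed over that given by base composition) above 0.6 was found in 24 of 35 member promoters, or 68.6%, against 79.6% of those other promoters, 71.4% in the lowest level group and 36.8% of all promoters. These matches and shares are descriptions, with no test, and a match is not evidence of binding.

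Library totals were 30576461, 30291357 and 35512356 counts in the lactate libraries, against 33584741, 38989574 and 34808082 in the control libraries. Every log2 fold change below is lactate over control from edgeR's quasi-likelihood fit over 13747 genes with TMM scaling, and a gene was called where its adjusted p was under 0.05. By that rule 4760 genes, or 34.6% of those tested, were called lower and 31.4% higher, and the median gene stood at -0.10. With scaling to library totals instead, 61.8% were called lower and 12.5% higher, and the median gene stood at -0.96, so every fold change depends on the scaling by about that shift. Of the defining markers of notochord-derived cells, Tbxt had 0, 0 and 0 counts in the lactate libraries, against 4, 4 and 4 in the control libraries. Col2a1, the cartilage collagen, had 5, 22 and 28 counts in the lactate libraries, against 23, 2 and 14 in the control libraries. The proteoglycan core protein Acan had 54584, 44847 and 65338 counts in the lactate libraries, against 111164, 114506 and 119250 in the control libraries. Tbxt and Col2a1 were thus near 0 in both groups while Acan was high in both. Pax1, a factor of the embryonic disc, had 2783, 3315 and 2921 counts in the lactate libraries, against 8521, 13530 and 12078 in the control libraries, and Cd24 had 3456, 3203 and 3723 against 1364, 1326 and 1506. Over the 13 markers of this kind in the table, 3 were called lower and 3 higher. With TMM scaling their summed level was 3578 to 4016 CPM in the lactate libraries, against 2891 to 3178 CPM in the control libraries. Scaled to library totals, the sum was lower in the lactate libraries instead. Most of it was Acan and Bsg, and Bsg had 27081, 28596 and 29856 counts in the lactate libraries, against 15843, 18568 and 15835 in the control libraries. Krt8, Cdh2, Foxa2 and Nog had fewer counts in every lactate library than in any control library.

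The 43 members together had 343, 293 and 330 counts in the lactate libraries, against 6952, 8326 and 7789 in the control libraries. Scaled to library totals that is 11.2, 9.67 and 9.29 CPM in the lactate libraries, against 207, 214 and 224 in the control libraries. The 3 libraries of a group lay close to each other, and the groups lay far apart. All 43 passed the filter on low counts and all were called lower, against 34.6% of all genes tested, and all 43 have groups that do not overlap, against 38.4% of all genes tested with the lactate libraries below; the rule used this contrast, so nothing follows from either count. The members' log2 fold changes lay between -6.87 and -2.37, with a median of -3.56, and between -7.69 and -3.23 with library totals. The lowest value is that of Dcun1d2, and with 3 reads left it depends on the prior count of the fit. In the authors' deposited table the same genes lay between -6.90 and -2.41, with a median of -3.60.

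**Figure D1:**
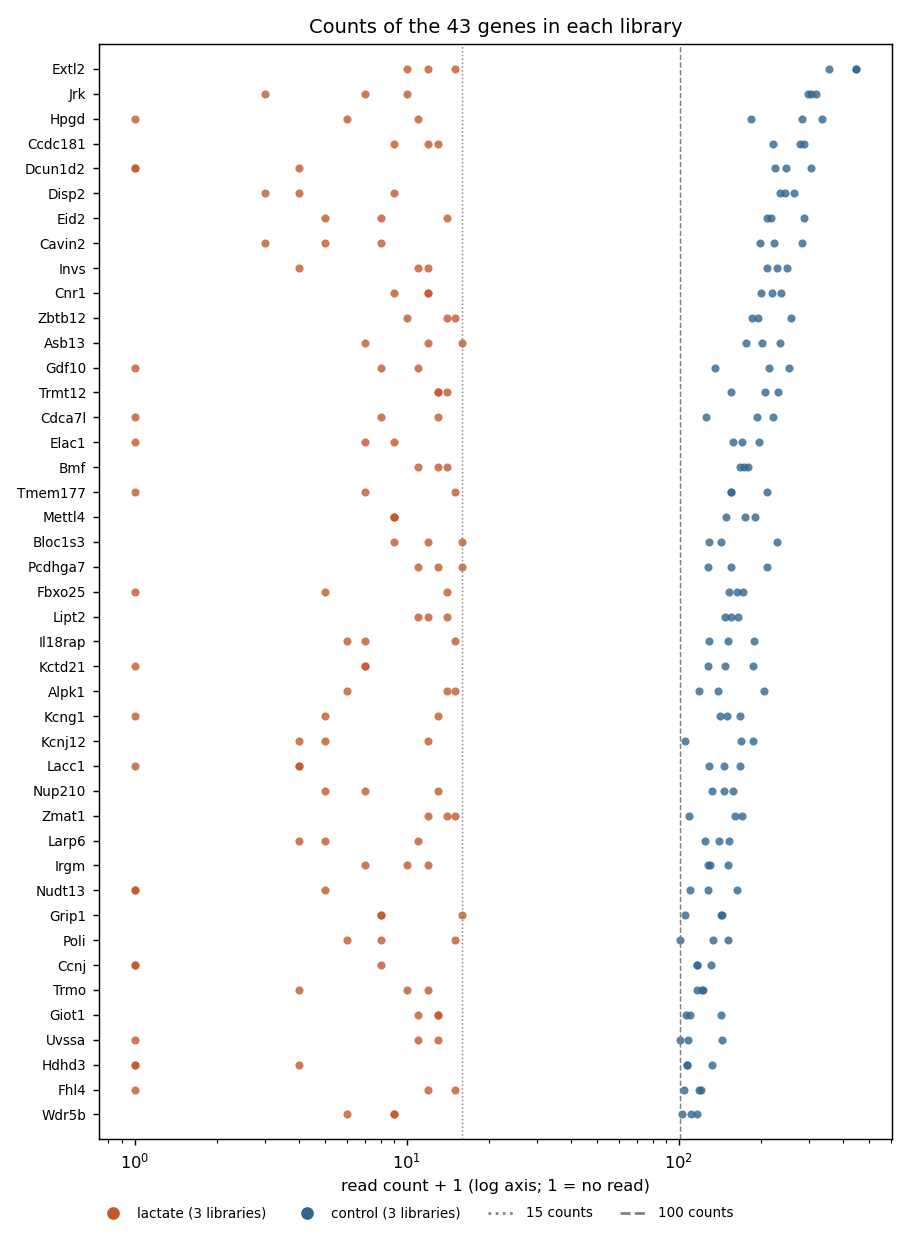
Read counts of the 43 nearly lost genes (rows) in each of the 3 lactate and the 3 control libraries, with the read count plus 1 on a logarithmic horizontal axis; each point is 1 library, orange for lactate and blue for control. Every lactate point is at 15 counts or fewer and every control point at 100 or more, which is how the genes were chosen.

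The genes whose loss left the fewest reads were Dcun1d2, Hdhd3, Nudt13, Lacc1 and Ccnj, singled out here after their values were seen. Dcun1d2, which helps attach the ubiquitin-like protein NEDD8 to cullins, had 0, 3 and 0 counts in the lactate libraries, against 224, 304 and 247 in the control libraries. With only 3 reads left, the ratio of its TMM-scaled counts, lactate over control, was 0.00778, with an exact counting interval of 0.0016 to 0.0228. Hdhd3, a protein of the haloacid dehalogenase fold, had 0, 0 and 3 counts in the lactate libraries, against 131, 106 and 106 in the control libraries, a ratio of 0.0176 with an interval of 0.00361 to 0.0518. These intervals cover counting error only. No gene with an admitted name that met the control threshold was at 0 in all 3 lactate libraries.

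Among the RNA-modifying and RNA-binding members, Trmt12, an enzyme of wybutosine synthesis in phenylalanine tRNA, had 12, 12 and 13 counts in the lactate libraries, against 154, 207 and 231 in the control libraries, a log2 fold change of -2.97 ± 0.291 (SE). Mettl4, an N6-adenine methyltransferase, had 8, 8 and 8 counts in the lactate libraries, against 190, 174 and 148 in the control libraries (-3.39 ± 0.31). Elac1, an endonuclease that trims or repairs the 3′ end of tRNA, had 6, 0 and 8 counts in the lactate libraries, against 196, 157 and 170 in the control libraries (-4.23 ± 0.604). The lactate libraries of Mettl4 and Trmt12 are nearly equal, whereas Elac1 is at 0 in one of them. Trmo, a tRNA methyltransferase, and Larp6, which binds a stem loop in type I collagen mRNAs, stood at 3 to 11 and at 3 to 10 counts in the lactate libraries, against 116 to 122 and 124 to 152 in the control libraries. The collagen genes themselves were not considered.

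Among the cullin-linked members besides Dcun1d2, Asb13, a SOCS-box adaptor of cullin 5, had 6, 11 and 15 counts in the lactate libraries, against 176, 234 and 201 in the control libraries (-3.25 ± 0.318). Fbxo25, an F-box protein of a cullin 1 ligase, had 4, 0 and 13 counts in the lactate libraries, against 152, 171 and 163 in the control libraries (-3.87 ± 0.65). Kctd21, a cullin 3 adaptor, had 6, 0 and 6 counts in the lactate libraries, against 127, 186 and 147 in the control libraries (-4.24 ± 0.6). Fbxo25 and Kctd21 were at 0 in the same lactate library, library 2, and Asb13 was not.

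Of the regulators of transcription, Jrk, a nuclear DNA-binding protein derived from a transposase, had 9, 2 and 6 counts in the lactate libraries, against 298, 304 and 319 in the control libraries (-4.73 ± 0.396). Eid2, which inhibits p300-dependent differentiation, had 4, 7 and 13 counts in the lactate libraries, against 217, 287 and 210 in the control libraries (-3.89 ± 0.345). Zbtb12, a BTB zinc finger protein, had 13, 14 and 9 counts in the lactate libraries, against 185, 195 and 257 in the control libraries (-3.10 ± 0.347). Jrk was steady in the controls and among the deepest falls, and Zbtb12 kept about as many reads as the threshold allows. Cdca7l, a Myc-interacting protein, had 7, 0 and 12 counts in the lactate libraries, against 192, 125 and 221 in the control libraries (-3.86 ± 0.668). Zmat1, Giot1 and Wdr5b, which carry zinc fingers or WD repeats, and the LIM-domain protein Fhl4 had log2 fold changes of -2.48, -2.37, -2.94 and -2.77.

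The signalling members include a ligand, a membrane protein of the Dispatched family, receptors and an enzyme that ends a lipid signal. Hpgd, the 15-hydroxyprostaglandin dehydrogenase that inactivates prostaglandin E2, had 5, 10 and 0 counts in the lactate libraries, against 183, 336 and 283 in the control libraries (-4.65 ± 0.693). Disp2, of the Dispatched family, whose relative releases lipid-linked Hedgehog, had 2, 3 and 8 counts in the lactate libraries, against 235, 263 and 244 in the control libraries (-4.83 ± 0.371). Cnr1, the cannabinoid receptor 1, had 8, 11 and 11 counts in the lactate libraries, against 237, 219 and 199 in the control libraries (-3.43 ± 0.286). Scaled to CPM, Disp2 had the lowest coefficient of variation of all members in the controls, 0.78%. Gdf10, also called BMP3b, a ligand of the TGF-beta superfamily, had 7, 0 and 10 counts in the lactate libraries, against 135, 214 and 252 in the control libraries (-4.15 ± 0.638). Il18rap, a chain of the interleukin 18 receptor, had 14, 6 and 5 counts in the lactate libraries, against 128, 188 and 150 in the control libraries (-3.16 ± 0.445).

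Cavin2, a coat protein of caveolae, the small pits of the plasma membrane, had 7, 2 and 4 counts in the lactate libraries, against 198, 282 and 223 in the control libraries (-4.71 ± 0.401). Of the channel genes, Kcnj12, the inward rectifier Kir2.2, had 11, 3 and 4 counts in the lactate libraries, against 104, 186 and 168 in the control libraries (-3.61 ± 0.505). Kcng1, a Kv6.1 subunit that forms no channel on its own, had 0, 12 and 4 counts in the lactate libraries, against 141, 166 and 149 in the control libraries (-3.78 ± 0.717). The 3 lactate libraries of Kcng1 differ from 0 to 12, so its fold change is known only roughly. Pcdhga7, a clustered protocadherin, had 10, 15 and 12 counts in the lactate libraries, against 127, 210 and 154 in the control libraries (-2.69 ± 0.331), but genes of that cluster share exons, so how its reads were assigned is uncertain. The scaffold protein Grip1, which binds glutamate receptors, had 7, 7 and 15 counts in the lactate libraries, against 104, 142 and 143 in the control libraries (-2.75 ± 0.342).

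Extl2, a glycosyltransferase of the exostosin family, which acts on the linker of heparan sulfate, had the most reads of all members in the controls, with 11, 9 and 14 counts in the lactate libraries, against 356, 448 and 445 in the control libraries (-4.18 ± 0.232). Invs, or inversin, of the primary cilium, had 10, 11 and 3 counts in the lactate libraries, against 209, 248 and 229 in the control libraries (-3.77 ± 0.453). Ccdc181, a coiled-coil protein of microtubules, had 8, 12 and 11 counts in the lactate libraries, against 221, 287 and 278 in the control libraries (-3.63 ± 0.282). All 3 genes kept some reads in every lactate library. Bloc1s3, a subunit of a complex for lysosome-related organelles, was the most variable member in the controls, with 11, 15 and 8 counts in the lactate libraries, against 228, 128 and 142 in the control libraries (-2.84 ± 0.434). Nup210 encodes a membrane protein of the nuclear pore, and its counts lay at 4 to 12 in the lactate libraries, against 131 to 157 in the control libraries.

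DNA repair is represented by Poli and Uvssa. Poli, the translesion polymerase iota, had 7, 14 and 5 counts in the lactate libraries, against 100, 151 and 132 in the control libraries (-2.81 ± 0.458). Uvssa, a factor of transcription-coupled repair, had 12, 10 and 0 counts in the lactate libraries, against 100, 143 and 107 in the control libraries (-2.89 ± 0.747). Both are among the members nearest the control threshold. Ccnj, or cyclin J, had 7, 0 and 0 counts in the lactate libraries, against 116, 116 and 130 in the control libraries (-4.61 ± 0.854).

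Of the mitochondrial members, Nudt13, a nudix hydrolase, had 0, 4 and 0 counts in the lactate libraries, against 109, 163 and 127 in the control libraries (-5.51 ± 0.778). Tmem177, which takes part in assembly of a cytochrome oxidase subunit, and Lipt2, which starts the attachment of lipoic acid to mitochondrial enzymes, had log2 fold changes of -3.66 and -2.74. Among defence and death genes, Lacc1, an enzyme of macrophage metabolism, had 3, 3 and 0 counts in the lactate libraries, against 128, 167 and 145 in the control libraries (-5.10 ± 0.604). Alpk1, a kinase that senses a bacterial sugar, Irgm, an immunity-related GTPase, and Bmf, a BH3-only protein that promotes cell death, stood at -2.83, -2.93 and -2.85. Since Lacc1 and Alpk1 are also known from leukocytes, markers of those cells are given here: of 6 listed markers in the table their summed level was 4.28 to 5.40 CPM in the lactate libraries, against 9.82 to 10.8 CPM in the control libraries. The defining marker Adgre1 had 0, 0 and 0 counts in the lactate libraries, against 4, 0 and 0 in the control libraries. The lower sum rests on Cd14, with 74, 58 and 70 counts in the lactate libraries, against 424, 523 and 410 in the control libraries, while Cd68 had 29, 26 and 54 against 20, 21 and 35; of the 6, 1 was called lower and 1 higher. The summed level of endothelial markers was 0.210 to 0.680 CPM in the lactate libraries, against 0.116 to 0.488 CPM in the control libraries, that of 5 adipocyte markers 0.753 to 1.40 against 2.36 to 2.96 CPM, and that of 4 neural and glial markers 60.4 to 68.1 against 19.1 to 25.1 CPM. That of 9 annulus fibrosus and fibroblast markers, mostly the collagen Col1a1 and fibronectin, was 139500 to 190500 CPM in the lactate libraries, against 45890 to 50230 CPM in the control libraries, with 2 called lower and 5 higher. That of 6 bone markers was 3574 to 4524 against 1536 to 1964 CPM, and that of 8 smooth muscle markers 2276 to 2787 against 2162 to 2465 CPM. All these sums use TMM scaling. The direction of the smooth muscle sum depends on it, as does that of the nucleus pulposus and notochord markers given earlier. The endothelial ranges of lactate and control overlap. The part of other cell types in the members' fall was not tested.

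**Figure D2:**
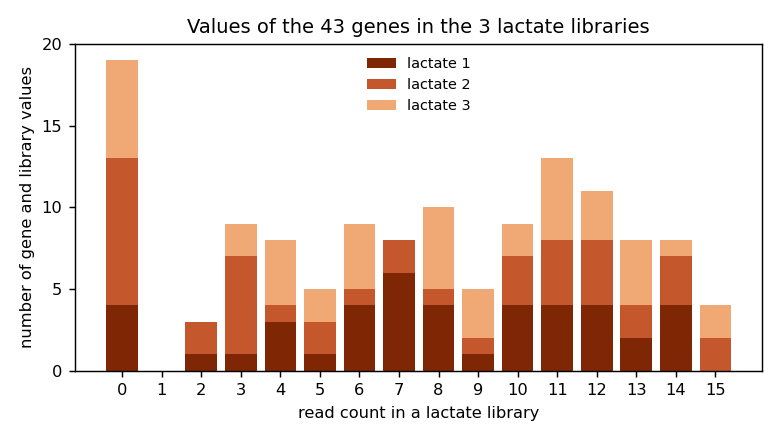
Distribution of the 129 lactate values of the 43 genes, with the read count in a library on the horizontal axis and the number of values on the vertical axis, stacked by lactate library. There are 19 values at 0, none at 1, and 12 at 2 or 3.

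Of the 129 lactate values, 19 were at 0, 0 were at 1 and 12 were at 2 or 3. They were spread over the libraries as 4, 9 and 6 values at 0 in the lactate libraries 1, 2 and 3. In all, 15 members had a 0 in at least 1 lactate library, 4 of them in 2 libraries (Dcun1d2, Nudt13, Ccnj and Hdhd3), and 8 combined a 0 in 1 library with 10 or more reads in another. A count of 1 was also rare over the whole table: 87, 108 and 114 rows in the lactate libraries, against 96, 106 and 90 in the control libraries, compared with 488, 423 and 438 rows at 2 in the lactate libraries, against 364, 354 and 342 in the control libraries. How the counting gave fewer 1s than 2s is not given in the sources used here, so a 0 here is not certain to mean that no read was found.

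Before lactate the members were already among the lowest of the genes that met the control threshold. On the CPM scale with TMM scaling their mean was 0.0350 to 0.544 in the lactate libraries, with a median of 0.322, against 2.27 to 8.64 in the control libraries, with a median of 3.37. The median control level of the other genes that met the threshold was 23.7 CPM. In the lowest of 5 equal groups by control CPM there were 42 of the 43, or 2.31% of 1816 genes, and the other one, Extl2, was in the next. A gene with a higher control level has to fall further to reach 15 counts, so this placing follows in part from the rule. The 1774 other genes of that lowest group stood at a median of -0.32 on the log2 scale, with 38.2% called lower and 25.4% called higher.

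**Figure D3:**
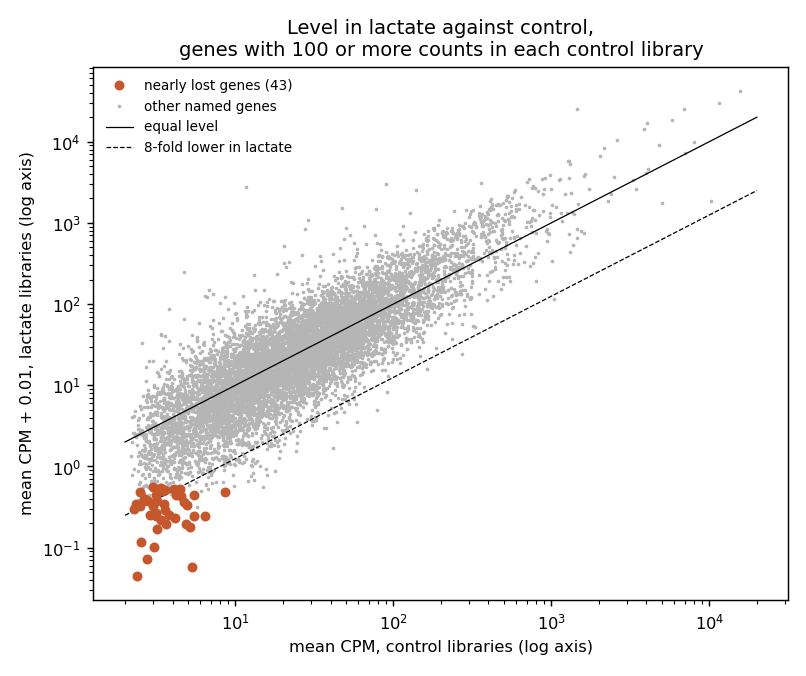
Mean CPM plus 0.01 in the lactate libraries (vertical) and mean CPM in the control libraries (horizontal), both on log axes, for genes that met the control threshold; the solid line marks equal level, the dashed line an 8-fold lower level, and orange points are the 43 nearly lost genes. The 43 lie at 0.0350 to 0.544 CPM in the lactate libraries, against 2.27 to 8.64 CPM in the control libraries, at the lower left edge of the cloud.

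Per length, as FPKM, the members' mean was 0.00983 to 0.562 in the lactate libraries, with a median of 0.0807, against 0.490 to 9.09 in the control libraries, with a median of 1.81. Eid2 and Bloc1s3 had the highest levels per length in the controls, with 9.09 ± 0.943 and 7.79 ± 3.06 FPKM (SD, n = 3), and Alpk1 and Nup210 the lowest, with 0.490 ± 0.106 and 0.570 ± 0.0939. A relative transcript length, the count divided by FPKM and library total, had a median of 2.48 kb over the members. It was 2.41 kb over the other genes that met the threshold and 2.04 kb over the other genes of the lowest level group. The middle quartiles of the members ran from 1.97 to 3.20 kb, against 1.62 to 3.66 kb for the other genes that met the threshold. The 5 equal length groups held 5, 11, 12, 9 and 6 members. The coefficient of variation of the members over the control libraries had a median of 12.1%, against 12.7% for the other genes of the lowest level group.

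Values near the thresholds show how thin the edges are. Just inside stood Uvssa, Poli and Wdr5b for the lowest control counts, of which Wdr5b had 8, 5 and 8 counts in the lactate libraries, against 102, 116 and 110 in the control libraries, and Pcdhga7, Bloc1s3, Asb13 and Grip1 for the highest lactate counts. Just outside on the control side, Six2, a homeobox factor, had 9, 9 and 5 counts in the lactate libraries, against 111, 99 and 139 in the control libraries, Iba57 had 2, 8 and 11 against 131, 99 and 121, and Rtn4rl1 had 10, 9 and 14 against 98, 115 and 113. Just outside on the lactate side, Mab21l3 had 5, 7 and 16 counts in the lactate libraries, against 111, 148 and 107 in the control libraries, Nmnat3 had 13, 16 and 10 against 142, 114 and 120, and Ralgps1 had 16, 12 and 14 against 129, 223 and 191. In all, 32 named genes missed the lactate threshold by up to 5 counts, and 14 missed the control threshold by up to 10 counts. Applied to counts scaled by TMM effective library size, the same thresholds gave 9 genes (Cavin2, Dcun1d2, Disp2, Elac1, Gdf10, Jrk, Kctd21, Lacc1 and Mettl4), because the scaling raises the lactate counts and lowers the control counts. The deepest falls were not limited to the members: 31 other genes fell at least as far as the members' median and started from 5.72 to 78.6 CPM in the controls.

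The 19 rows counted apart, 14 of them unnamed gene models of the authors' annotation, had 0 to 15 counts in the lactate libraries, against 103 to 470 in the control libraries. Such rows made up 27.5% of those that passed both thresholds and 9.47% of those that met the control threshold. One was at 0 in all 3 lactate libraries, against 348 to 412 counts in the control libraries.

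Relatives of the members by name, looked up after the members were known, did not share one direction. Only name families with at most 14 relatives in the table were counted. Of 74 tested relatives of 19 members in such families, 33, or 44.6%, were called lower, 14 higher and 27 were not called. The share over all genes was 34.6% lower, and the relatives' median was -0.51 on the log2 scale. With library totals 58 were called lower and 8 higher. The 44.6% leaves out 9 members with larger families, so it depends on that cutoff. Relatives called lower there were 44 of 154 for Tmem177, 37 of 77 for Ccdc181 and 20 of 50 for Wdr5b. For Zbtb12, Fbxo25, Mettl4 and Nup210 they were 15 of 37, 4 of 24, 8 of 19 and 4 of 19. For Nudt13 and Kctd21 they were 4 of 18 and 6 of 16. In these larger families higher calls outnumbered lower ones for Tmem177 (59), Fbxo25 (12), Nup210 (6) and Nudt13 (6). They were fewer than the lower calls for Ccdc181 (9), Wdr5b (10), Zbtb12 (10), Mettl4 (5) and Kctd21 (3). Besides Dcun1d2, Dcun1d1 had 72, 78 and 96 counts in the lactate libraries, against 542, 858 and 636 in the control libraries, and was lower by edgeR (-2.03 ± 0.183, adjusted p = 2.28e-05). Dcun1d4 was also lower (-2.62 ± 0.298, adjusted p = 8.39e-05 by edgeR), while Dcun1d3 was higher (1.60 ± 0.163, adjusted p = 4.41e-05 by edgeR), and Dcun1d5 was not called (-0.09 ± 0.118, adjusted p = 0.543 by edgeR) with TMM scaling and lower with library totals (-0.95). The Dcun1d family thus held calls in both directions.

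Kcnj8, the pore subunit Kir6.1 of ATP-sensitive channels and a relative of Kcnj12, had 37, 54 and 12 counts in the lactate libraries, against 1214, 1264 and 1030 in the control libraries, and was lower by edgeR (-4.01 ± 0.473, adjusted p = 0.000103). Kcnj2, or Kir2.1, had 0, 0 and 1 counts in the lactate libraries, against 25, 54 and 29 in the control libraries, a ratio of 0.0186 with an exact counting interval of 0.000467 to 0.106. Of the relatives of Gdf10, Gdf6 had 0, 4 and 2 counts in the lactate libraries, against 38, 46 and 41 in the control libraries (-3.31 ± 0.713, adjusted p = 0.00317 by edgeR). Gdf15, a stress-induced cytokine, had 62900, 59259 and 73573 counts in the lactate libraries, against 521, 693 and 486 in the control libraries, and was higher (7.87 ± 0.151, adjusted p = 8.34e-08 by edgeR). Ligands of one name thus moved in opposite directions. Eid1 was lower (-2.12 ± 0.146, adjusted p = 5.99e-06 by edgeR), and Eid2b, with 0, 1 and 3 counts in the lactate libraries, against 44, 30 and 28 in the control libraries, was lower too (-3.62 ± 0.747, adjusted p = 0.0025 by edgeR).

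Other relatives moved little, the other way or down with the member. Elac2, the long form of the tRNA 3′ endonuclease, had 491, 506 and 643 counts in the lactate libraries, against 1212, 1296 and 1289 in the control libraries, and was not called by edgeR with TMM scaling (-0.20 ± 0.11, adjusted p = 0.131) but lower with library totals (-1.07). Cavin3, another coat protein of caveolae, had 4467, 4439 and 4671 counts in the lactate libraries, against 10308, 10493 and 9732 in the control libraries, and likewise was not called by edgeR with TMM scaling (-0.15 ± 0.115, adjusted p = 0.293) but lower with library totals (-1.01). Zmat3, a p53 target that binds RNA, was higher with both scalings (3.15 ± 0.143, adjusted p = 1.67e-06 by edgeR with TMM), while Zmat2 was lower (-1.12 ± 0.127, adjusted p = 8.24e-05 by edgeR). Among 12 relatives of Trmt12 there were 6 lower, 3 higher and 3 not called, although the higher call of Trmt10c was lost with library totals (-0.18). Among 10 relatives of Pcdhga7 there were 6 lower, 0 higher and 4 not called, and 5 of these 6 calls were lost when one or another library was left out.

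**Figure D4:**
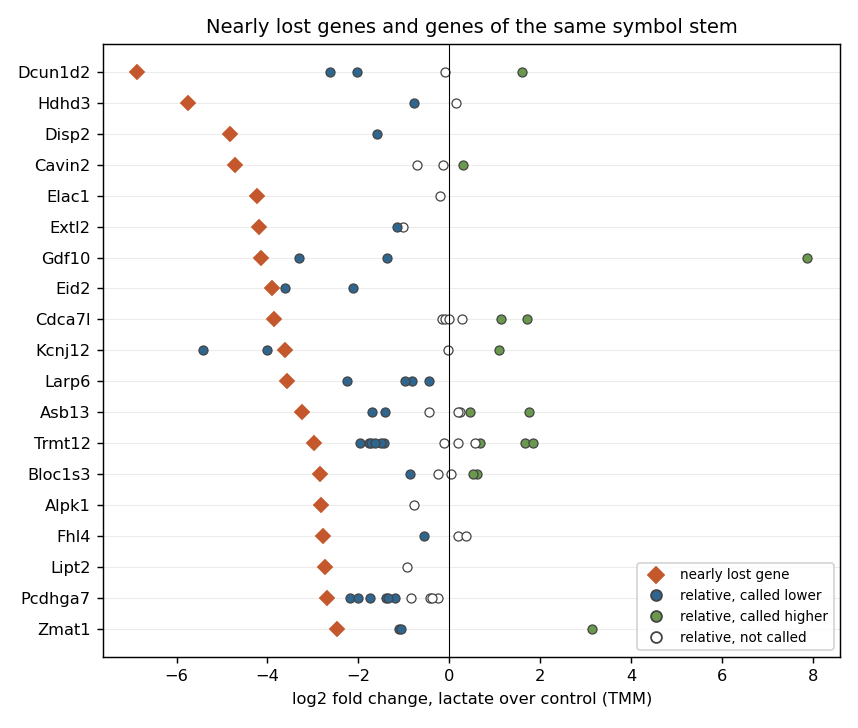
Log2 fold change of lactate over control (horizontal) for the 19 members with tested relatives in a name family of at most 14 relatives (rows). Members with larger families are not shown. Diamonds are members, and circles are their relatives, blue where called lower, green where called higher and open where not called. Each member lies left of its relatives except Kcnj12, with Kcnj2 and Kcnj8 further left, and Gdf15 stands at 7.87, far to the right of Gdf10 at -4.15.

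Genes that neighbour a member on the chromosome in RefSeq gave 57 tested genes that are not members. Of these 19, or 33.3%, were called lower, 15 higher and 23 not called, with a median log2 fold change of 0.05. The share called lower is near the 34.6% over all genes, and with library totals 35 were lower and 6 higher. No pair of members were neighbours of each other. Eid2b, given above, is the neighbour of Eid2. Ccdc122, the neighbour of Lacc1, picked after its values were seen, had 4, 4 and 5 counts in the lactate libraries, against 70, 86 and 62 in the control libraries (-3.03 ± 0.394, adjusted p = 0.000178 by edgeR).

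Of the 43 members, 10 belong to a gene list drawn up by function, in 6 of 13 lists, and 33 belong to none. In the DNA repair list, which holds Poli and Uvssa, 55 of the 107 other tested genes were called lower, or 51.4% against 34.6% over all genes, 12 were higher and 40 were not called, with a median of -0.64. With library totals 89 were lower and 4 higher, with a median of -1.49. Mdc1, which recruits repair factors to broken DNA, had 80, 78 and 100 counts in the lactate libraries, against 1158, 1647 and 1724 in the control libraries (-3.12 ± 0.175, adjusted p = 2.74e-06 by edgeR), and Lig3, a DNA ligase, was lower as well (-2.02 ± 0.121, adjusted p = 3.46e-06 by edgeR). Alkbh1, a demethylase of nucleic acids, was higher, with 1920, 1838 and 2334 counts in the lactate libraries, against 552, 711 and 639 in the control libraries (2.69 ± 0.108, adjusted p = 1.25e-06 by edgeR). The list thus held more lower than higher calls.

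In the list of ubiquitin ligases and adaptors, which holds Asb13 and Fbxo25, 66 of 192 other genes were lower, or 34.4%, 67 higher and 59 not called, which is near the background, with a median of 0.03. With library totals 119 were lower and 23 higher, with a median of -0.83. The giant ligase Rnf213 was lower (-2.30 ± 0.169, adjusted p = 8.17e-06 by edgeR) and Fbxo30 was higher (2.17 ± 0.131, adjusted p = 3.58e-06 by edgeR). In the glycan list, which holds Extl2, 59 of 125 were lower, or 47.2%, 34 higher and 32 not called, with a median of -0.43. With library totals 96 were lower and 6 higher, with a median of -1.31. Mgat1, which opens the way to complex N-glycans, had 315, 367 and 457 counts in the lactate libraries, against 7304, 7197 and 8815 in the control libraries (-3.36 ± 0.145, adjusted p = 1.43e-06 by edgeR). Ext2, a heparan sulfate polymerase and relative of Extl2, was higher instead (1.58 ± 0.122, adjusted p = 1.02e-05 by edgeR).

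In the list of methyltransferases and tRNA modifiers, which holds Trmt12 and Mettl4, 41 of 96 were lower, or 42.7%, 24 higher and 31 not called, with a median of -0.50. With library totals 69 were lower and 6 higher, with a median of -1.35. Nsun2, an RNA cytosine methyltransferase, was lower (-1.09 ± 0.093, adjusted p = 1.68e-05 by edgeR), and Trit1, which modifies an adenosine of tRNA, was higher (2.37 ± 0.138, adjusted p = 3.09e-06 by edgeR). In the ion channel list, which holds Kcnj12 and Kcng1, 25 of 66 were lower, or 37.9%, 16 higher and 25 not called, with a median of -0.37. With library totals 49 were lower and 4 higher, with a median of -1.22. Lrrc8e, a subunit of volume-regulated anion channels, had 21, 23 and 37 counts in the lactate libraries, against 443, 561 and 515 in the control libraries (-3.23 ± 0.207, adjusted p = 4.53e-06 by edgeR), while Trpc1 was higher (1.59 ± 0.155, adjusted p = 3.36e-05 by edgeR). In the list of BTB and other zinc finger regulators, which holds Zbtb12, 37 of 75 were lower, or 49.3%, 12 higher and 26 not called, with a median of -0.64. With library totals 52 were lower and 4 higher, with a median of -1.47. Zfhx4 was lower (-3.22 ± 0.236, adjusted p = 7.93e-06 by edgeR) and Zbtb10 was higher (3.27 ± 0.222, adjusted p = 5.79e-06 by edgeR).

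**Figure D5:**
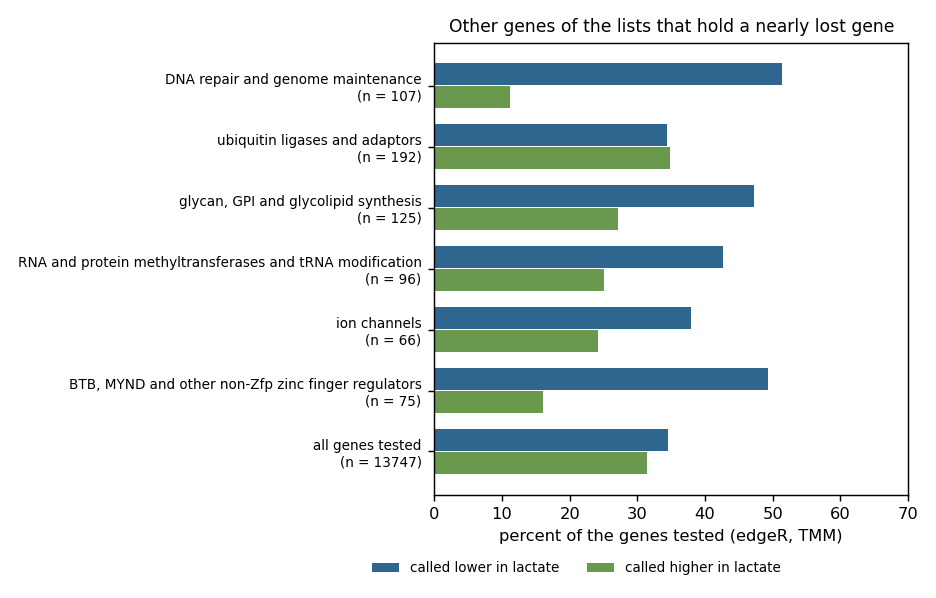
Share of the other tested genes called lower or higher in the lactate libraries (horizontal, percent) for the 6 lists that hold a nearly lost gene and for all 13747 genes tested. The DNA repair list has 51.4% lower and the ubiquitin ligase list 34.4%, beside 34.6% for all genes.

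The other 7 lists held no member, and the highest shares of lower calls among the 13 lists were in 2 of these: cilium and centrosome, with 63 of 102 lower, or 61.8%, 13 higher and a median of -0.77, and regulators of small GTPases, with 78 of 132 lower, or 59.1%, 22 higher and a median of -0.87. With library totals these had 87 lower and 2 higher, and 105 lower and 3 higher. Over all listed genes that are not members, 720 of 1667 were called lower, or 43.2%, and 417 higher. With library totals 1170 were called lower and 143 higher.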

How the data were processed

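RNA was sequenced from 3 lactate and 3 control libraries. Per the file headers, the authors deposited for each library a raw read count per gene and the same count as FPKM, scaled to transcript length and library total, together with log2 fold changes and p-values of their own comparison. The submitters' processing notes name the mouse builds GRCm38 and mm10, although the gene names are rat, and no source used here says which aligner, counter or build gave the counts. The smaller of 2 deposited tables, a subset, was not used. All columns of per-sample values were mapped to a sample (0 unmapped).

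From the counts, edgeR 4.0.16 in R 4.3.3 was run on 17273 rows, with filterByExpr, TMM scaling, the quasi-likelihood test and Benjamini-Hochberg adjustment over the 13747 genes that passed. The steps were tested on simulated data with as many genes raised as lowered among mostly unchanged genes. That run does not test the scaling where most genes are called, as they are here. The members, the gene lists and the tests were chosen with earlier results of these data known. Values were given for the 15 members with the highest control CPM, members in a gene list, members nearest a threshold and, of each list, up to 3 genes lower and 3 higher with the smallest p. Further members, relatives and neighbours were named after their values were seen. Gene neighbours and promoters came from RefSeq. Alternatives were RLE factors, library totals, no filter, DESeq2 1.42.0, the replicate number as a block, other thresholds, and leaving out each library.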

Additional observations from a re-analysis of the deposited data

How the results depend on the processing

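The members' number depends on the rule. Against 43 as reported, lactate thresholds of 10 and 30 counts gave 15 and 155 genes, a control threshold of 200 gave 7, thresholds on counts scaled by TMM effective library size gave 9, and thresholds on the summed counts of each group, an alternative chosen after seeing the data, gave 120. Scaling to the mean library total gave 32, with a median relative length of 2.64 kb against 2.48. Leaving out 1 library gave 47 to 71 genes, the most without lactate library 3, since the rule then asks for fewer libraries. The members' median log2 fold change, -3.56 as reported, was -4.42 with library totals. For the same 43 members refitted with 1 library left out it was -3.52 to -3.25. All 43 were called lower in each of the alternative fits run, against 61.8% of all genes tested with library totals. The members were chosen by this contrast, so nothing follows from that count. Over listed genes outside the members, library totals gave 1170 lower and 143 higher, against 720 and 417, because that scaling shifts the whole table down. Over all genes, 9079 calls became 8026 to 9407 with 1 library left out. With the replicate number as a block there were 8814, with 703 listed genes lower and 408 higher. The labels do not say whether same-numbered libraries belong together. Same-numbered libraries had correlations of 0.00776, 0.0381 and 0.084 in their deviations from the group means. Differently numbered ones had -0.108 to 0.0713, and control library 1 correlated more with lactate library 2 (0.0713) than with its own number. Values this small cannot decide whether the libraries are paired. Depth sets part of the error: at 0 to 15 reads a library, a member's fold change carries a standard error of 0.232 to 0.854.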

Other observations

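Genes that fell as far as the median member but had more than 15 reads in at least 1 lactate library include several of matrix and signalling. They were picked after their values were seen. Has2, a hyaluronan synthase, had 19, 10 and 27 counts in the lactate libraries, against 637, 645 and 521 in the control libraries, a log2 fold change of -4.02 ± 0.27 (SE, adjusted p = 5.5e-06 by edgeR). Bmp3, the closest relative of Gdf10, had 23, 4 and 20 counts in the lactate libraries, against 447, 835 and 468 in the control libraries (-4.20 ± 0.466, adjusted p = 7.2e-05 by edgeR). Thrb, a thyroid hormone receptor, had 26, 9 and 24 counts in the lactate libraries, against 599, 690 and 570 in the control libraries (-3.97 ± 0.309, adjusted p = 1.08e-05 by edgeR). Ttpal, a lipid-binding protein, had 38, 36 and 47 counts in the lactate libraries, against 2065, 1972 and 1935 in the control libraries (-4.62 ± 0.146, adjusted p = 4.9e-07 by edgeR). These genes started from a higher control level than the members. Mapk7, the kinase ERK5, had 69, 0 and 0 counts in the lactate libraries, against 499, 665 and 644 in the control libraries, so that its reads in the lactate group came from 1 library.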
